A study of Mus musculus with 30 samples.

Results

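Multinucleated osteoclasts of wild-type (WT) C57BL/6J mice aged 20 months were compared with those of WT mice aged 1 month. The members were 3 libraries titled as 20-month WT cultures (replicates 1, 2 and 4) and 3 titled as 1-month WT cultures without a further tag (replicates 1, 3 and 4), 6 of the 30 libraries of the series, and all 50686 genes of the files were considered. In both groups macrophages grown from bone marrow were given the cytokines RANKL (100 ng/ml) and M-CSF (25 ng/ml), in medium with 10% FBS, and were collected once large multinucleated cells were present. No mouse of either group carried a mutation, and the mice without Terc that the series also holds are not compared here. The stated purpose was to learn whether osteoclasts of different donor ages differ in gene expression. A second set of 3 libraries of 1-month WT multinucleated cultures, whose titles carry a tag beginning with D1 (set D1), and 3 libraries of 6-month WT multinucleated cultures are used for side-by-side values, as are WT cultures of 20 and 6 months stopped after 2 days. The labels give neither the number of days that the multinucleated cultures took nor the number of mice, and replicate numbers are not stated to be separate animals or dishes. The p-values thus measure a spread between libraries of a group that may be technical. That spread was estimated with all 30 libraries of the series, those of mice without Terc included.

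Osteoclasts are the cells that resorb bone. They form when macrophage-lineage precursors receive M-CSF through the receptor Csf1r and RANKL through the receptor RANK, encoded by Tnfrsf11a. RANK signalling, helped by immunoreceptor adaptors and calcium, induces the transcription factor Nfatc1, while factors such as Irf8 and Id proteins that keep the macrophage state hold it back. Fused cells attach to bone through an integrin, seal off a space beneath them, acidify it with a proton pump (the V-ATPase) and secrete the collagen-degrading protease cathepsin K and matrix metalloproteinase 9.

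The 6 libraries held 17765784 to 25147975 counts each. All 6 showed the osteoclast markers Ctsk, Acp5 and Mmp9 and the macrophage markers Cd68, Adgre1 and Lyz2, while Cd3e (T cells) and Ly6g (neutrophils) had 0 counts in each, which allows at most 3 counts per library. Replicate 1 of the 1-month group stood apart from its fellows: its counts differed from replicates 3 and 4 with chi-square per degree of freedom of 17.5 and 21.2, against 2.89 to 3.21 for every other pair within these groups. In the 1st plane of a principal component analysis of the 18 WT libraries, whose axes held 43.1% and 32.8% of the variance, the 1-month and set D1 libraries lay apart from each other and from the 20-month ones. The 20-month and untagged 1-month libraries expressed Y-linked genes (Ddx3y had 4926 and 4430 counts in sum) with 11 and 0 counts of Xist. The set D1 libraries had 0 counts of Ddx3y and 46411 of Xist, so the donor sex read from these genes differed between the 1-month sets, and the 6-month libraries again expressed Ddx3y.

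Differences between the 20-month and the 1-month libraries were widespread. Of the 15310 genes tested with edgeR's quasi-likelihood test, 10497 (68.6%) passed a Benjamini-Hochberg adjusted p of 0.05, 5234 of them (34.2%) higher and 5263 (34.4%) lower in the 20-month libraries. Among these, 2342 genes (15.3%) were at least 2-fold higher and 1159 (7.57%) at least 2-fold lower. Because so many genes passed, a list of genes is described below by its counts in each direction beside those shares and by its median log2 fold change (20-month over 1-month), which was 0.02 over all tested genes. Scaling by library totals in place of TMM moved that overall median by 0.13. It gave 6232 genes higher and 4313 lower, so that 59.1% of the called genes were higher, against 49.9% with TMM. The groups' 3 libraries did not overlap for 10932 genes (71.4%). In the same libraries the summed level of the 23 stromal and osteoblast markers tested was higher (5941 to 6759 CPM in the 20-month libraries, against 1212 to 1261 CPM in the 1-month libraries). That of the 6 neutrophil markers tested, out of 16 listed, was lower (14.1 to 18.2 CPM, against 65.3 to 77.4 CPM). The part of other cells in the results below was not tested. Levels are given as CPM (counts relative to library size, after TMM scaling) for replicates 1, 2 and 4 of the 20-month group and replicates 1, 3 and 4 of the 1-month group, and each log2 fold change is followed by its standard error.

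Genes of bone resorption and attachment were the most uniform of the osteoclast lists: 22 of 24 rose, 16 of them at least 2-fold, and none fell, with a median log2 fold change of 1.75. Ctsk (cathepsin K, ENSMUSG00000028111, chromosome 3, 95499256-95509362, GRCm38) had 6619.8, 6843 and 7322 CPM in the 20-month libraries, against 568, 559 and 551 CPM in the 1-month libraries. The lowest 20-month library stood far above the highest 1-month library, and the fitted difference between the groups was 12.4-fold (log2 fold change 3.63 ± 0.09, adjusted p = 4.6e-27). Mmp9 (matrix metalloproteinase 9, ENSMUSG00000017737, chromosome 2, 164940780-164955850) had 10303, 10737 and 11006 CPM in the 20-month libraries, against 735, 815 and 830.1 CPM in the 1-month libraries (log2 fold change 3.75 ± 0.07, adjusted p = 8.4e-30). Acp5 (tartrate-resistant acid phosphatase, the classical stain for osteoclasts) had 3955, 3851 and 4114 CPM in the 20-month libraries, against 488, 495 and 467 CPM in the 1-month libraries (log2 fold change 3.04 ± 0.09, adjusted p = 5.5e-25). In bulk RNA, fewer osteoclasts in a dish and less of these transcripts per osteoclast cannot be told apart.

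The widest ratio of any named gene was that of Calcr, the receptor through which calcitonin stops resorption (ENSMUSG00000023964, chromosome 6, 3685680-3764714). Its raw counts were 918, 1002 and 1213 in the 20-month libraries, against 2, 12 and 14 in the 1-month libraries, and its level averaged 53.7 ± 4.5 CPM in the 20-month libraries and 0.415 ± 0.274 CPM in the 1-month libraries (SD, n = 3 each, log2 fold change 6.96 ± 0.15, adjusted p = 3.5e-28). The 1-month libraries were thus close to the limit of detection for this gene. Itgb3, the beta chain of the integrin that anchors osteoclasts to bone, had 149.9, 152 and 159.8 CPM in the 20-month libraries, against 13.7, 14.5 and 15.9 CPM in the 1-month libraries (log2 fold change 3.38 ± 0.07, adjusted p = 2.2e-28). Car2, the carbonic anhydrase that supplies protons to the pump, had 105, 106 and 109.7 CPM in the 20-month libraries, against 14.5, 15.6 and 17.4 CPM in the 1-month libraries (log2 fold change 2.75 ± 0.08, adjusted p = 2.8e-24). Siglec15 (an osteoclast lectin receptor) at 21.7 against 2.57 CPM and Slc9b2 (a sodium/proton exchanger) at 354 against 63.2 CPM rose as well, as did the chloride/proton exchanger Clcn7 by a smaller ratio (log2 fold change 0.90 ± 0.05). Only Gsn (629 against 669 CPM) and Cst3 (671 against 691 CPM) of this list did not pass the test.

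The Ctsk promoter shows the letters of a pair of factors that drive osteoclast genes, and is printed because Ctsk is the defining protease of the cell and rose 12.4-fold here. The RefSeq window (chr3:95498960-95499259, plus strand, GRCm38.p6) runs from 250 bases before to 50 after the gene's start in RefSeq, 5′ to 3′. Capitals mark the NFAT core TTTCCA, the letters bound by Nfatc1.
Ctsk: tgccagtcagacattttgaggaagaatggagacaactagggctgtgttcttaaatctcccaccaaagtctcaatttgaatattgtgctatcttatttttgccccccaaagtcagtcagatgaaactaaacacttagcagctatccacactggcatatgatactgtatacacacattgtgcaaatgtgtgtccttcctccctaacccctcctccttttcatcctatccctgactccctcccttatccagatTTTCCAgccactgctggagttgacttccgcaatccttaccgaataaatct
The core begins at RefSeq's start itself, whereas the gene coordinates used for the counts, given above, start further downstream, near the window's end. The window also holds the PU.1 letters GAGGAAG on both strands, 1 match each. TTTCCA, on either strand, was found in 7 of the 29 promoter windows matched to 18 of the 24 resorption genes (24.1%), against 21.4% of all 32851 windows, and GAGGAAG in 6 of the 29 (20.7%), against 13.6% of all. TTTCCA was found in 14 of 34 windows of the inflammatory list (41.2%) and 17 of 45 of the interferon-stimulated list (37.8%), whose members mostly fell, in 3 of 17 of the fusion list (17.6%) and in 6 of 41 of the cell cycle list (14.6%). The windows of Acp5 and Calcr hold no match. These are matches of letters and say nothing of binding.

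**Figure D1:**
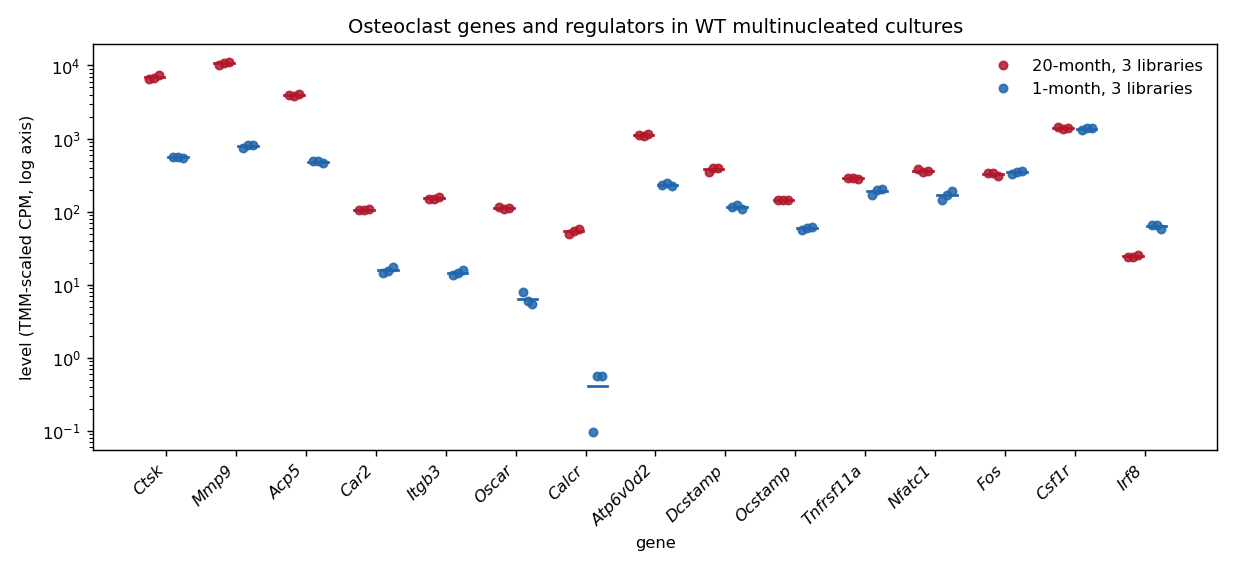
Levels of 15 osteoclast genes and regulators in each library (points; lines are group means) on a log axis of TMM-scaled CPM, 20-month libraries on the left and 1-month libraries on the right of each gene. Ctsk, Mmp9, Acp5, Car2, Itgb3, Oscar and Calcr are separated by wide gaps, Fos and Csf1r overlap, and Irf8 lies lower in the 20-month libraries.

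Fusion genes were split. Of 18, 11 rose and 6 fell (median 0.56). Tspan7, a tetraspanin that organises the osteoclast cytoskeleton, had 54.6, 60.1 and 60.2 CPM in the 20-month libraries, against 3.14, 2.67 and 2.5 CPM in the 1-month libraries (log2 fold change 4.4 ± 0.11, adjusted p = 4.7e-26). The fusion proteins proper moved less: Dcstamp, needed for osteoclasts to fuse, had 345, 402 and 390.4 CPM in the 20-month libraries, against 118, 122 and 108 CPM in the 1-month libraries (log2 fold change 1.71 ± 0.07, adjusted p = 1.5e-21). Ocstamp, its relative, had 145, 146 and 143 CPM in the 20-month libraries, against 55.5, 60.5 and 62.1 CPM in the 1-month libraries (log2 fold change 1.28 ± 0.08, adjusted p = 6.0e-16). Both were separated between the groups without overlap. On the other side, Adam8, a membrane protease, averaged 840.1 ± 27 CPM in the 20-month libraries and 2899.6 ± 119 CPM in the 1-month libraries (log2 fold change -1.79 ± 0.05, adjusted p = 1.0e-24). The tetraspanin Cd81 averaged 65.7 ± 2.63 CPM in the 20-month libraries and 205 ± 20.5 CPM in the 1-month libraries (log2 fold change -1.64 ± 0.06, adjusted p = 1.8e-21). Mst1r, a receptor tyrosine kinase, rose to 87.8 CPM, against 19.2 CPM in the 1-month libraries.

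The proton pump followed the resorption genes in part. Of 18 V-ATPase subunits tested, 12 rose and 3 fell (median 0.44). Atp6v0d2, the subunit typical of osteoclasts, had 1108, 1086 and 1159 CPM in the 20-month libraries, against 232, 248 and 223 CPM in the 1-month libraries (log2 fold change 2.26 ± 0.06, adjusted p = 4.1e-25). The peripheral subunits Atp6v1b2 (2121 against 826 CPM), Atp6v1d (470.2 against 185 CPM) and Atp6v1a (1778 against 726 CPM) rose by more than 2-fold too. Those that fell did so by little: the membrane subunit Atp6v0a1 had a log2 fold change of -0.60 ± 0.05, Atp6v0c one of -0.44 ± 0.08 and Atp6v0d1, the widely expressed counterpart of Atp6v0d2, one of -0.26 ± 0.07. The direction of Atp6v0d1 was not kept when gene length was centred (log2 fold change 0.03). Lysosomal genes outside the pump ran the other way, with 18 of 28 lower and 6 higher (median -0.39). The cathepsins Ctsl (-2.07 ± 0.07), Ctsd (-1.54 ± 0.07) and Ctss (-1.31 ± 0.06), log2 fold changes with standard errors, fell while Ctsk rose.

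The receptors that start the pathway differed little or not detectably. Csf1r, the M-CSF receptor, had 1445, 1345 and 1407 CPM in the 20-month libraries, against 1306, 1411 and 1398 CPM in the 1-month libraries, and the groups overlapped (log2 fold change 0.03 ± 0.04, adjusted p = 0.58). Tnfrsf11a, which encodes RANK, had 289, 291 and 279 CPM in the 20-month libraries, against 169.98, 201 and 205 CPM in the 1-month libraries (log2 fold change 0.58 ± 0.06, adjusted p = 2.4e-10). Of 28 receptors, co-receptors and adaptors, 12 rose and 10 fell, close to the shares of all genes. Within them Oscar, an osteoclast receptor for collagen, had 115, 107 and 112 CPM in the 20-month libraries, against 7.89, 6.01 and 5.45 CPM in the 1-month libraries (log2 fold change 4.12 ± 0.11, adjusted p = 2.2e-25). The kinase Src averaged 319.9 against 125 CPM (log2 fold change 1.36 ± 0.06, adjusted p = 1.5e-20). The adaptors with which these receptors signal went lower: Fcer1g, the partner of Oscar, had 114, 122 and 128 CPM in the 20-month libraries, against 444, 319.98 and 316 CPM in the 1-month libraries (log2 fold change -1.57 ± 0.10, adjusted p = 3.5e-15). Tyrobp averaged 308 against 720.04 CPM (log2 fold change -1.23 ± 0.07, adjusted p = 3.3e-16). Trem2, the receptor that pairs with Tyrobp, averaged 180.5 against 499 CPM (log2 fold change -1.47 ± 0.08, adjusted p = 4.0e-18).

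Transcription factors of osteoclasts showed 7 higher and 11 lower of 22. Nfatc1, the master factor, had 383, 353 and 357 CPM in the 20-month libraries, against 146, 171 and 189 CPM in the 1-month libraries (log2 fold change 1.11 ± 0.07, adjusted p = 2.3e-15). Fosl2, a Fos relative that controls osteoclast size, averaged 565 ± 15 CPM in the 20-month libraries and 189.5 ± 17.9 CPM in the 1-month libraries (log2 fold change 1.57 ± 0.06, adjusted p = 3.5e-21). Prdm1, a repressor of macrophage genes, averaged 135 ± 3.74 CPM in the 20-month libraries and 48.5 ± 5.34 CPM in the 1-month libraries (log2 fold change 1.48 ± 0.08, adjusted p = 3.7e-17). Ppargc1b, a coactivator of mitochondrial biogenesis in osteoclasts, averaged 52.1 ± 3.05 CPM in the 20-month libraries and 15.1 ± 3.77 CPM in the 1-month libraries (log2 fold change 1.77 ± 0.10, adjusted p = 1.0e-16). These 4 rose at least 2-fold. Fos itself had 339, 343 and 313 CPM in the 20-month libraries, against 327, 352 and 359 CPM in the 1-month libraries, and its groups overlapped (log2 fold change -0.06 ± 0.05, adjusted p = 0.33). The 11 that fell did so mostly by small ratios, such as Junb (-0.81 ± 0.09) and Mef2c (-0.57 ± 0.09). Fosl1 (-1.26 ± 0.12) and Nfe2 (-1.86 ± 0.71) were at least 2-fold lower. Nfe2 was under 5 CPM in both groups, and its ratio is uncertain, as its standard error shows.

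Repressors of osteoclast formation fell nearly as a group: 18 of 21 were lower, 11 at least 2-fold, and 2 were higher (median -1.06). Irf8, which keeps precursors in the macrophage state, had 24, 23.7 and 25.8 CPM in the 20-month libraries, against 66.4, 65.5 and 58.7 CPM in the 1-month libraries (log2 fold change -1.37 ± 0.06, adjusted p = 3.1e-19). The inhibitors of helix-loop-helix factors Id1 (11.2 against 54 CPM) and Id2 (54.8 against 188 CPM) and the factor Cebpb (4.14 against 31 CPM) were lower without overlap of libraries. The exceptions were Tnfaip3, an inhibitor of NF-kB (log2 fold change 0.71 ± 0.06, adjusted p = 4.1e-13), and Tnfrsf11b, which encodes the RANKL decoy osteoprotegerin and is made mostly by stromal cells. Tnfrsf11b had 14.7, 11.3 and 14.2 CPM in the 20-month libraries, against 1.37, 1.57 and 1.72 CPM in the 1-month libraries (log2 fold change 3.1 ± 0.16, adjusted p = 3.3e-18).

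Factors through which osteoclasts act on bone-forming cells were mostly higher, 11 of 17 with a median of 1.42, and 4 were lower. Against set D1, 2 were higher and 12 lower (median -0.49). The summed level of the 17 was lower, at 1876 to 1933 CPM in the 20-month libraries, against 2267 to 2521 CPM in the 1-month libraries. Sphk1, which makes sphingosine-1-phosphate, averaged 11.7 ± 0.723 CPM in the 20-month libraries and 1.84 ± 0.417 CPM in the 1-month libraries (log2 fold change 2.66 ± 0.17, adjusted p = 3.1e-15). Efnb2, the membrane ligand ephrin B2, averaged 15.4 ± 1.42 CPM in the 20-month libraries and 3.02 ± 0.639 CPM in the 1-month libraries (log2 fold change 2.35 ± 0.14, adjusted p = 1.5e-16). Lif, a cytokine of the interleukin 6 family, averaged 21.8 against 5.01 CPM (log2 fold change 2.12 ± 0.12, adjusted p = 5.8e-17). All 3 were higher in each 20-month library than in any 1-month library. In the other direction, the growth factor Igf1 had 136, 128 and 132 CPM in the 20-month libraries, against 452, 444 and 395 CPM in the 1-month libraries (log2 fold change -1.7 ± 0.07, adjusted p = 1.8e-21). Complement C3 averaged 315 ± 28.9 CPM in the 20-month libraries and 774 ± 102 CPM in the 1-month libraries (log2 fold change -1.3 ± 0.07, adjusted p = 2.6e-17). Cxcl12, a chemokine of marrow stroma that stands in this list and in the stromal one, had 11.8, 14.7 and 15.8 CPM in the 20-month libraries, against 2.3, 1.53 and 1.52 CPM in the 1-month libraries (log2 fold change 3.0 ± 0.31, adjusted p = 2.7e-10).

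Genes were ranked if they were called, had at least 5 CPM in a group and no overlap of libraries, and were not predicted genes. Among these, the 15 with the highest ratios were Calcr, Steap4, Corin, St8sia6, Clic5, Kazn, Itga2, Ephx2, S1pr3, Ckmt1, Pde3a, Cplx2, Card14, Mt3 and Ablim1. Steap4, a reductase of iron and copper, had 37.5, 32.1 and 36.9 CPM in the 20-month libraries, against 0.735, 0.525 and 0.451 CPM in the 1-month libraries (log2 fold change 5.96 ± 0.15, adjusted p = 2.1e-26). Corin, a membrane protease, had 20.03, 22.7 and 24.2 CPM in the 20-month libraries, against 0.490, 0.573 and 0.205 CPM in the 1-month libraries (log2 fold change 5.74 ± 0.18, adjusted p = 6.4e-24). Both were below 1 CPM in each 1-month library. Itga2, a collagen-binding integrin chain, averaged 15.1 ± 1.8 CPM in the 20-month libraries and 0.488 ± 0.298 CPM in the 1-month libraries (log2 fold change 4.9 ± 0.22, adjusted p = 9.4e-20). Ckmt1, a mitochondrial creatine kinase, averaged 16.1 ± 1.19 CPM in the 20-month libraries and 0.605 ± 0.306 CPM in the 1-month libraries (log2 fold change 4.71 ± 0.18, adjusted p = 6.9e-22). Its cytosolic relative Ckb, of the resorption list, averaged 2012 against 658 CPM (log2 fold change 1.61 ± 0.09, adjusted p = 7.1e-17). All 15 were picked by a rule that requires no overlap of libraries, so their separation was fixed by that rule. S1pr3, a receptor for sphingosine-1-phosphate, averaged 14 ± 1.41 CPM in the 20-month libraries and 0.481 ± 0.0908 CPM in the 1-month libraries (log2 fold change 4.83 ± 0.25, adjusted p = 7.6e-18). The remaining genes of the 15 had log2 fold changes of 4.45 to 5.62.

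**Figure D2:**
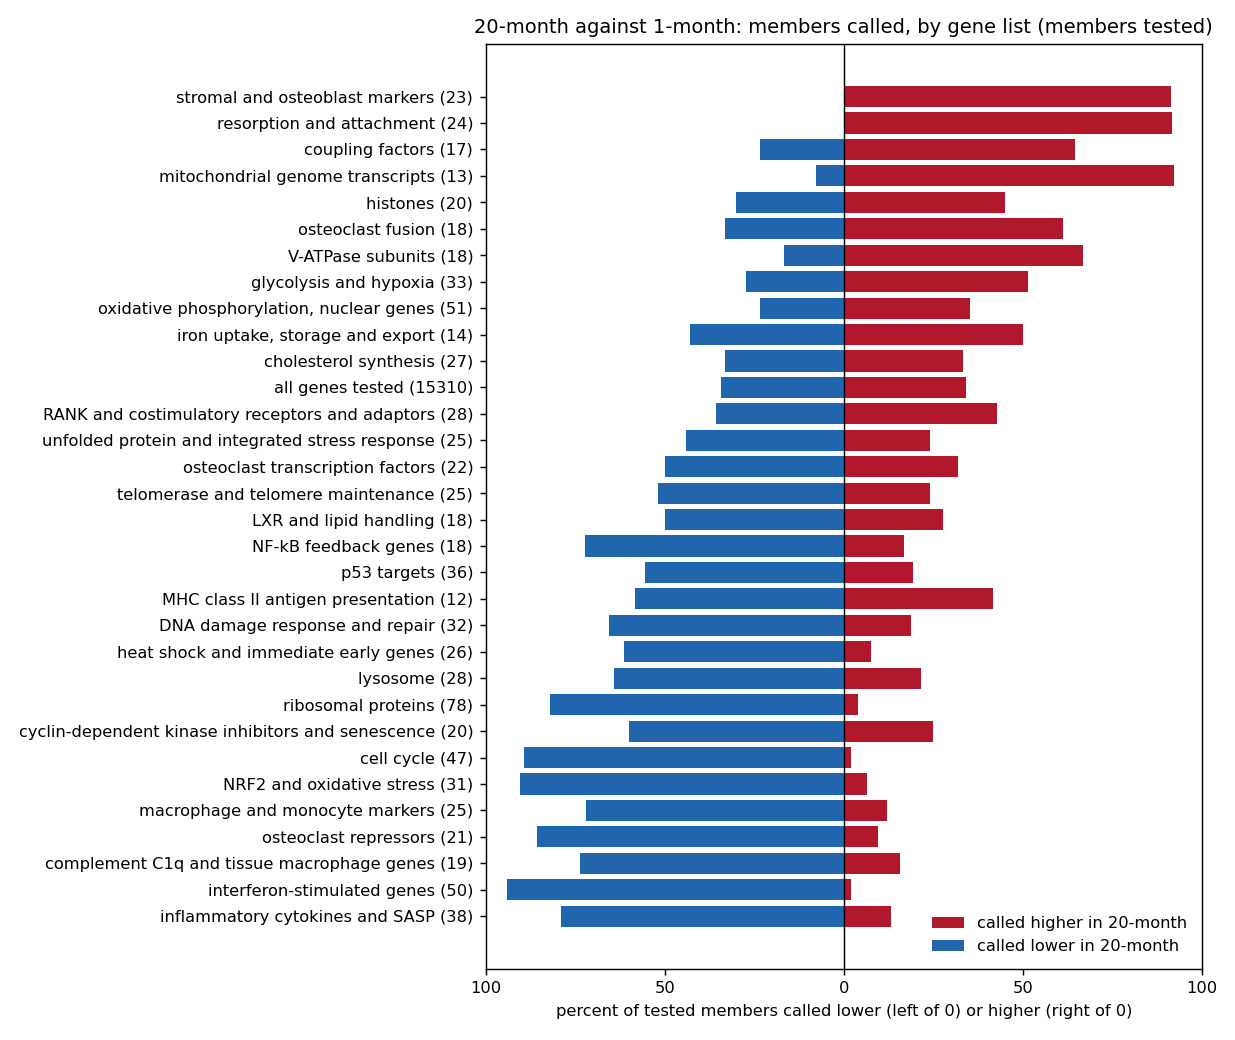
Percent of the tested members of each gene list called higher (right of 0) or lower (left of 0) in the 20-month than in the 1-month libraries, for lists with at least 12 tested members (number in parentheses) and for all 15310 genes. Resorption and stromal lists have no member called lower, while interferon-stimulated, cell cycle and NRF2 lists have 1 or 2 members called higher.

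Among the genes ranked, the 15 lowest ratios belonged to Ifi208, Cxcl3, Marco, Ccl12, Lcn2, Ccl2, Ccl7, Lrmda, Ccl4, Cxcl2, Pf4, Ccl5, Saa3, Ccl6 and Tarm1. Of these, 8 encode CC or CXC chemokines by name and Pf4 a chemokine of platelets and macrophages. Ccl2, which draws monocytes (ENSMUSG00000035385, chromosome 11, 82035571-82037453), had 17.5, 25.8 and 16.2 CPM in the 20-month libraries, against 475, 327 and 339 CPM in the 1-month libraries (log2 fold change -4.27 ± 0.14, adjusted p = 1.5e-23). Marco, a scavenger receptor of macrophages (ENSMUSG00000026390, chromosome 1, 120474538-120505024), had 18.8, 28.3 and 21.6 CPM in the 20-month libraries, against 869, 708 and 751 CPM in the 1-month libraries (log2 fold change -5.08 ± 0.13, adjusted p = 4.2e-26). Every 20-month library lay more than 10-fold below every 1-month library for both genes. Saa3, an acute phase protein, had 17.6, 20.3 and 20.4 CPM in the 20-month libraries, against 266, 164 and 191 CPM in the 1-month libraries (log2 fold change -3.41 ± 0.21, adjusted p = 6.6e-16). Lcn2, which binds bacterial iron carriers, averaged 0.943 ± 0.274 CPM in the 20-month libraries and 20.8 ± 3.62 CPM in the 1-month libraries (log2 fold change -4.45 ± 0.28, adjusted p = 8.4e-16). Over the list of inflammatory cytokines and secreted factors of senescent cells, 30 of 38 were lower, 24 at least 2-fold, and 5 were higher (median -1.51). Tnf averaged 11.8 against 49.99 CPM (log2 fold change -2.08 ± 0.09, adjusted p = 2.4e-20). Il1b averaged 1.38 against 6.36 CPM (log2 fold change -2.19 ± 0.36, adjusted p = 2.3e-06). Those that rose included Vegfa (113 against 22.1 CPM), Igfbp7 (32.1 against 13.2 CPM), Csf1 (63.8 against 37 CPM) and Timp1 (48.3 against 38.9 CPM), which are made by stromal cells as well as macrophages.

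Most macrophage genes were lower: 18 of 25 markers fell, 12 at least 2-fold, 3 rose and 4 did not pass the test, Csf1r among them (median -0.98). Lyz2, lysozyme, averaged 6356 ± 182 CPM in the 20-month libraries and 23556 ± 1116 CPM in the 1-month libraries (log2 fold change -1.89 ± 0.05, adjusted p = 5.1e-25). Adgre1, the F4/80 antigen, averaged 512 ± 22.2 CPM in the 20-month libraries and 1661 ± 46.4 CPM in the 1-month libraries (log2 fold change -1.7 ± 0.05, adjusted p = 2.3e-24). Msr1, a scavenger receptor, averaged 309 ± 17.7 CPM in the 20-month libraries and 1065 ± 30.6 CPM in the 1-month libraries (log2 fold change -1.79 ± 0.06, adjusted p = 3.9e-23). Their summed level was 12000.2 to 12541 CPM in the 20-month libraries, against 33290 to 35619 CPM in the 1-month libraries. Cd68, a lysosomal protein that osteoclasts also carry, went the other way with 1423, 1501 and 1563 CPM in the 20-month libraries, against 1288, 1227 and 1094 CPM in the 1-month libraries (log2 fold change 0.31 ± 0.06, adjusted p = 2.9e-05). Axl, a receptor for apoptotic cells, averaged 56.6 against 30.2 CPM (log2 fold change 0.91 ± 0.08, adjusted p = 5.9e-12). Complement C1q and tissue macrophage genes gave 14 lower and 3 higher of 19 (median -1.35), among them the C1q chains C1qa (86.9 against 368 CPM), C1qb (199.97 against 614 CPM) and C1qc (138 against 529 CPM), which fell together. Antigen presentation genes were split, with 7 lower and 5 higher of 12: the class II chains H2-Ab1 (1.36 ± 0.16), H2-Aa (1.73 ± 0.20) and H2-Eb1 (1.82 ± 0.21) rose, from levels under 5 CPM in the 1-month libraries, while the costimulator Cd40 fell (-1.73 ± 0.12).

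Interferon-stimulated genes were lower almost without exception. Of 50 tested, 47 fell, 38 of them at least 2-fold, and 1 rose (median -1.4). Interferons act through a complex that holds Stat2 and Irf9, which binds a repeated GAAA motif in the promoters of these genes, and the promoters of a ubiquitin-like modifier (Isg15) and a chemokine (Cxcl10) are shown because they hold that motif and were among the 3 lowest of the list. The windows are RefSeq's on GRCm38.p6, 5′ to 3′ on the gene's strand, Isg15 at chr4:156200769-156201068, minus strand and Cxcl10 at chr5:92348840-92349139, minus strand, with capitals for GAAA, a pair of any bases, and GAAA again.
Isg15: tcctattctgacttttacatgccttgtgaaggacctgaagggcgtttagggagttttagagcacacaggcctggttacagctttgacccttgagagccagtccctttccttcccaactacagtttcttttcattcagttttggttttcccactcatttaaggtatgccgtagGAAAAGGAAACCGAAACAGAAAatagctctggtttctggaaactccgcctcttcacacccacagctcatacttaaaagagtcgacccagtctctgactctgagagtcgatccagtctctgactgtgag
Cxcl10: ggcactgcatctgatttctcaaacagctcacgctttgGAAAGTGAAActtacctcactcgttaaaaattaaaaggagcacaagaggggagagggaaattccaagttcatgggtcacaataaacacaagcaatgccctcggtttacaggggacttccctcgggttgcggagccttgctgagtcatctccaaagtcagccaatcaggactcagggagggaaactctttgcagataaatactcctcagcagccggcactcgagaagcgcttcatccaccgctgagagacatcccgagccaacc
The Isg15 window holds 3 overlapping copies, the first of which begins 78 bases before the start, and the Cxcl10 window 1 copy, which begins 213 bases before it. This pattern, on either strand, was found in 24 of the 45 windows matched to 38 of the 50 interferon-stimulated genes (53.3%), against 3.44% of all windows. In the windows of the inflammatory cytokines, some of which are also interferon targets, it was found in 5 of 34 (14.7%).

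Isg15 (ENSMUSG00000035692, chromosome 4, 156199424-156200818) had 14.8, 8.36 and 8.39 CPM in the 20-month libraries, against 64, 78 and 50.3 CPM in the 1-month libraries (log2 fold change -2.61 ± 0.17, adjusted p = 2.6e-15). Cxcl10 had 17.4, 17.5 and 9.73 CPM in the 20-month libraries, against 78.3, 87.7 and 72.7 CPM in the 1-month libraries (log2 fold change -2.43 ± 0.21, adjusted p = 4.2e-12). Among the 20-month libraries replicate 1 was the highest for Isg15 and replicate 4 the lowest for Cxcl10, and no library reached the 1-month range. Bst2, a membrane protein that tethers viruses, had 87.2, 75.8 and 67.8 CPM in the 20-month libraries, against 439.5, 385 and 319 CPM in the 1-month libraries (log2 fold change -2.31 ± 0.11, adjusted p = 1.6e-19). The factors of the pathway were lower too. Irf7 averaged 51.3 against 236 CPM (log2 fold change -2.2 ± 0.13, adjusted p = 4.9e-16). Stat2 averaged 41.5 against 109 CPM (log2 fold change -1.39 ± 0.09, adjusted p = 1.1e-15). Irf9 averaged 37.5 against 72.6 CPM (log2 fold change -0.95 ± 0.08, adjusted p = 1.7e-12). The member that rose, the guanylate-binding protein Gbp7, did so by a small ratio (log2 fold change 0.33 ± 0.11, adjusted p = 0.01), and its call was lost without 1-month replicate 1 (log2 fold change 0.24) or without 20-month replicate 1 (0.25). The Ifi20x, Oas1 and Ifit3 genes have near-identical neighbours, so the split of reads among them is uncertain.

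**Figure D3:**
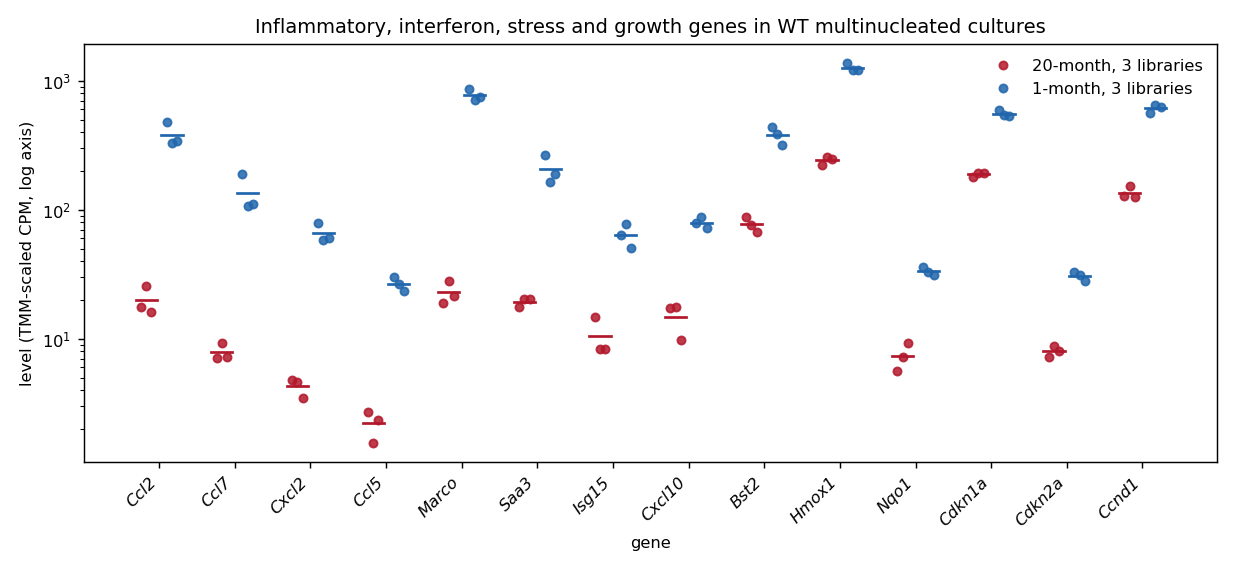
Levels of 14 inflammatory, interferon-stimulated, oxidative stress and growth genes in each library (points; lines are group means) on a log axis of TMM-scaled CPM, 20-month libraries left and 1-month libraries right of each gene. Every gene shown is lower in all 3 20-month libraries than in any 1-month library.

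Genes of the antioxidant response controlled by NRF2 were lower in 28 of 31 cases and higher in 2 (median -0.97), with 15 at least 2-fold lower. Hmox1, which degrades heme, had 224, 256 and 247 CPM in the 20-month libraries, against 1372, 1218 and 1202 CPM in the 1-month libraries (log2 fold change -2.38 ± 0.07, adjusted p = 6.3e-25). Nqo1, a quinone reductase, had 5.68, 7.24 and 9.3 CPM in the 20-month libraries, against 35.9, 33.2 and 31.4 CPM in the 1-month libraries (log2 fold change -2.17 ± 0.11, adjusted p = 8.7e-18). The peroxiredoxin Prdx1 averaged 713 ± 21.6 CPM in the 20-month libraries and 2758 ± 322 CPM in the 1-month libraries (log2 fold change -1.95 ± 0.07, adjusted p = 1.2e-22). Gstp1 (21.8 against 11.3 CPM) and Gpx3 (12.4 against 4.23 CPM) were the 2 that rose. Of the 14 iron genes tested 7 rose and 6 fell. Ferritin, which stores iron, was lower in both chains. Fth1 averaged 2245 ± 16.5 CPM in the 20-month libraries and 8629 ± 1082 CPM in the 1-month libraries (log2 fold change -1.94 ± 0.07, adjusted p = 1.5e-21). Ftl1 averaged 1806 against 5456 CPM (log2 fold change -1.6 ± 0.09, adjusted p = 8.3e-17). The phagosomal exporter Slc11a1 was lower as well (log2 fold change -1.81 ± 0.05, adjusted p = 2.1e-25). Tfrc, the transferrin receptor for uptake, had 1191, 1180.3 and 1266 CPM in the 20-month libraries, against 306, 339.6 and 328 CPM in the 1-month libraries (log2 fold change 1.9 ± 0.06, adjusted p = 2.2e-24). Ncoa4, which delivers ferritin to the lysosome, averaged 296 ± 9.8 CPM in the 20-month libraries and 118 ± 12 CPM in the 1-month libraries (log2 fold change 1.33 ± 0.06, adjusted p = 7.9e-19). One that rose, the exporter Slc40a1 (log2 fold change 0.26 ± 0.08, adjusted p = 0.0039), turned to -0.018 with gene length centred.

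Genes of proliferation were lower: 42 of 47 cell cycle genes fell, 18 of them at least 2-fold, and 1 rose (median -0.85). Ccnd1, a cyclin of the G1 phase, had 127, 153 and 125 CPM in the 20-month libraries, against 565, 651 and 625 CPM in the 1-month libraries (log2 fold change -2.19 ± 0.07, adjusted p = 2.6e-24). Its relative Ccnd3 averaged 18.8 ± 2.19 CPM in the 20-month libraries and 72 ± 6.15 CPM in the 1-month libraries (log2 fold change -1.93 ± 0.09, adjusted p = 7.9e-20). Cdk1, the mitotic kinase, averaged 69.95 against 162 CPM (log2 fold change -1.21 ± 0.06, adjusted p = 8.0e-18). Mki67, a general mark of cycling cells, had 438 against 493 CPM and did not pass (log2 fold change -0.17 ± 0.09, adjusted p = 0.09). The third of these cyclins, Ccnd2, was the member of the list that rose, with 58.6, 49.3 and 58.8 CPM in the 20-month libraries, against 22.2, 22.5 and 23.9 CPM in the 1-month libraries (log2 fold change 1.28 ± 0.09, adjusted p = 1.5e-14). DNA repair genes gave 21 lower and 6 higher of 32 (median -0.36). The histone variant H2afx, which marks breaks, averaged 18.4 ± 1.35 CPM in the 20-month libraries and 51.1 ± 3.87 CPM in the 1-month libraries (log2 fold change -1.47 ± 0.09, adjusted p = 5.6e-16). The damage kinase Atm rose by a small ratio (log2 fold change 0.59 ± 0.13, adjusted p = 1.7e-04), as did Prkdc (0.48 ± 0.10), whose direction was not kept when gene length was centred (log2 fold change -0.02).

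Cdkn1a and Cdkn2a, inhibitors of the cell cycle that are widely used as marks of senescence, were lower in the 20-month than in the untagged 1-month libraries. Cdkn1a, which encodes p21, had 179.9, 193 and 194 CPM in the 20-month libraries, against 594, 542 and 531 CPM in the 1-month libraries (log2 fold change -1.55 ± 0.05, adjusted p = 1.5e-22). Cdkn2a, the locus of p16 and Arf, whose transcripts the gene counts do not separate, had 7.18, 8.84 and 8.1 CPM in the 20-month libraries, against 32.9, 31 and 27.9 CPM in the 1-month libraries (log2 fold change -1.92 ± 0.12, adjusted p = 1.2e-15). Cdkn1b, which encodes p27, a cell cycle inhibitor of differentiating cells, rose with 48.9, 49.6 and 54.3 CPM in the 20-month libraries, against 15.8, 18.9 and 15 CPM in the 1-month libraries (log2 fold change 1.62 ± 0.08, adjusted p = 6.0e-18). In the list of inhibitors and senescence genes 12 of 20 fell and 5 rose (median -0.45). Against set D1, 8 of the list were higher and 7 lower (median 0.10). Targets of p53 gave 20 lower and 7 higher of 36 (median -0.29): Bax (-1.62 ± 0.11), Plk3 (-1.61 ± 0.09) and Phlda3 (-1.6 ± 0.12) fell, and Pmaip1, which encodes the death effector Noxa, rose to 91.6 CPM, against 23.5 CPM (log2 fold change 1.97 ± 0.08, adjusted p = 2.5e-21).

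Telomerase itself was barely measured. Terc, its RNA template, which lacks a poly(A) tail and is poorly sampled after oligo(dT) selection, had 0, 1 and 0 counts in the 20-month libraries and 0 in each 1-month library. Tert, the catalytic subunit, had 7, 7 and 9 counts in the 20-month libraries, against 11, 5 and 4 in the 1-month libraries, and did not pass (log2 fold change 0.36 ± 0.51, adjusted p = 0.54). Of 25 telomere genes tested 13 fell and 6 rose, none by 2-fold. Ctc1 averaged 27.2 ± 1.62 CPM in the 20-month libraries and 51.9 ± 0.461 CPM in the 1-month libraries (log2 fold change -0.93 ± 0.07, adjusted p = 4.2e-14). Acd, the shelterin protein TPP1, averaged 12.2 ± 0.404 CPM in the 20-month libraries and 22.5 ± 1.92 CPM in the 1-month libraries (log2 fold change -0.88 ± 0.10, adjusted p = 2.6e-09). Pot1b, which binds the single-stranded end, averaged 26.9 ± 2.07 CPM in the 20-month libraries and 17.2 ± 0.949 CPM in the 1-month libraries (log2 fold change 0.65 ± 0.08, adjusted p = 3.3e-08). The rises of Atrx (0.60 ± 0.11) and Tnks (0.62 ± 0.09), which are long genes, were not calls when gene length was centred (-0.02 and 0.07).

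Ribosomal protein genes were lower by small ratios in 64 of 78 cases, with 2 at least 2-fold lower, and 3 were higher (median -0.43). Fau averaged 184 ± 2.95 CPM in the 20-month libraries and 438 ± 91.5 CPM in the 1-month libraries (log2 fold change -1.25 ± 0.10, adjusted p = 9.2e-13). Rpl13 averaged 363 ± 17.3 CPM in the 20-month libraries and 712 ± 68.8 CPM in the 1-month libraries (log2 fold change -0.97 ± 0.08, adjusted p = 4.6e-12). These are short genes, with a median exonic length of 1730 bases against 3784 over all tested genes, and with gene length centred 50 fell and 8 rose (median -0.24). Many have processed copies in the genome that can take reads. Transcripts of the mitochondrial genome were higher in 12 of 13 cases (median 0.91), and their share of all counts was 3.79% to 4.02% in the 20-month libraries, against 1.96% to 2.09% in the 1-month libraries. The subunit mt-Nd5 had 4708, 4746 and 4750.04 CPM in the 20-month libraries, against 1249.8, 1768 and 1869.5 CPM in the 1-month libraries (log2 fold change 1.54 ± 0.10, adjusted p = 3.3e-15). Mt-Nd3, which has few counts, was lower (log2 fold change -2.4 ± 0.29, adjusted p = 6.8e-09). Copies of mitochondrial genes in the nuclear genome make those with few counts uncertain. Nuclear genes of the respiratory chain were divided, 18 higher and 12 lower of 51. Sdha, the large subunit of succinate dehydrogenase, averaged 759 ± 11.2 CPM in the 20-month libraries and 399 ± 3.61 CPM in the 1-month libraries (log2 fold change 0.93 ± 0.04, adjusted p = 3.7e-20). Cox8a, a small subunit of cytochrome oxidase, averaged 76.4 ± 3.6 CPM in the 20-month libraries and 172 ± 28.3 CPM in the 1-month libraries (log2 fold change -1.17 ± 0.10, adjusted p = 5.4e-12). With gene length centred, 33 of the 51 rose and 13 fell.

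Of 33 genes of glycolysis and the hypoxia response, 17 rose and 9 fell (median 0.19), and the highest ratios belonged to oxygen-responsive genes, Egln3, Adm (2.41 ± 0.30), Vegfa and Bnip3 (1.68 ± 0.13). Egln3, an oxygen-sensing hydroxylase and itself a target of the response, had 23.1, 34.2 and 33.3 CPM in the 20-month libraries, against 1.57, 1.77 and 1.52 CPM in the 1-month libraries (log2 fold change 4.22 ± 0.27, adjusted p = 2.2e-15). Vegfa, the vascular growth factor, had 92, 122 and 124 CPM in the 20-month libraries, against 21.3, 24.5 and 20.6 CPM in the 1-month libraries (log2 fold change 2.35 ± 0.11, adjusted p = 4.2e-19). In both genes 20-month replicate 1 was the lowest of its group and still above every 1-month library. Gapdh (-0.26 ± 0.07) and Pkm (-0.36 ± 0.06) fell slightly, while Aldoa (0.06 ± 0.07) and Ldha (-0.04 ± 0.06) did not pass. Among lipid genes, Scd2, a fatty acid desaturase, had 253, 234 and 244 CPM in the 20-month libraries, against 20.04, 20.6 and 19.5 CPM in the 1-month libraries (log2 fold change 3.6 ± 0.14, adjusted p = 1.4e-21). Scd1 averaged 10.5 ± 1.04 CPM in the 20-month libraries and 1.63 ± 0.191 CPM in the 1-month libraries (log2 fold change 2.68 ± 0.18, adjusted p = 8.7e-15). The fatty acid transporter Cd36 (266 against 899 CPM) and the droplet coat protein Plin2 (344 against 1019 CPM) fell. Cholesterol synthesis genes gave 9 higher and 9 lower of 27. Histone genes gave 9 higher and 6 lower of the 20 tested out of 35 in the list, with Hist2h2be, a gene that makes polyadenylated RNA in differentiated cells, at 64.8, 64.8 and 67.5 CPM in the 20-month libraries, against 7.45, 9.83 and 9.17 CPM in the 1-month libraries (log2 fold change 2.89 ± 0.09, adjusted p = 1.7e-23). Histone genes left out of the test had counts too low in all groups.

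Genes of the unfolded protein and integrated stress response showed no common direction, with 6 higher and 11 lower of 25. Heat shock and immediate early genes gave 2 higher and 16 lower of 26, the higher ones being Egr1 (32.4 against 14.4 CPM) and Hspa1b (11.6 against 6.68 CPM). Feedback genes of NF-kB gave 3 higher and 13 lower of 18, with ratios that mostly stayed under 2-fold.

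Matrix and stromal transcripts, which are made by osteoblasts and fibroblasts and can come from such cells in a marrow culture, moved with the osteoclast genes. Of 23 tested, 21 rose, 18 at least 2-fold, and none fell (median 2.61). Their summed level was 7478 to 8385 CPM in set D1 and 3406 to 4252 CPM in the 6-month libraries, and 7101 to 7341 CPM in 20-month and 10649.99 to 11611 CPM in 6-month cultures stopped after 2 days. Col1a1, a chain of type I collagen, averaged 926 ± 67.1 CPM in the 20-month libraries and 135 ± 3.46 CPM in the 1-month libraries (log2 fold change 2.78 ± 0.09, adjusted p = 2.9e-23). Col6a1, a chain of type VI collagen, had 225, 177 and 208 CPM in the 20-month libraries, against 18.3, 19.6 and 22.9 CPM in the 1-month libraries (log2 fold change 3.32 ± 0.12, adjusted p = 8.3e-22). The osteoblast enzyme Alpl had 7.34, 3.54 and 4.7 CPM in the 20-month libraries, against 0.686, 0.477 and 0.328 CPM in the 1-month libraries (log2 fold change 3.39 ± 0.29, adjusted p = 3.9e-12). The late osteoblast product Bglap had 3 counts in sum in the 20-month libraries, against 5 in the 1-month libraries. Neutrophil markers moved the other way: 5 of the 6 tested fell, and 10 of the 16 listed genes had counts too low to test. Mmp8, a neutrophil collagenase, had 3.48, 4.34 and 4.51 CPM in the 20-month libraries, against 30.4, 27.5 and 29.3 CPM in the 1-month libraries (log2 fold change -2.82 ± 0.13, adjusted p = 8.2e-20), and Elane and Ly6g were at or near 0. The 3 markers of T and NK cells tested, out of 17 listed, gave 2 higher and 1 lower. They summed to 10.4 to 11.4 CPM in the 20-month libraries, against 2.67 to 2.89 CPM in the 1-month libraries. Most of this was Cd5, at 7.98, 8.58 and 8.53 CPM in the 20-month libraries, against 1.67, 1.29 and 1.6 CPM in the 1-month libraries. Cd3e was at 0. Markers of B and plasma cells gave 2 higher and 2 lower of 6 tested, and summed to 118 to 122 CPM in the 20-month libraries, against 161 to 173 CPM in the 1-month libraries, most of it Blnk (104 against 159 CPM), an adaptor that macrophages also express. Igkc, the immunoglobulin kappa constant region, had 19, 58 and 46 counts in the 20-month libraries, against 0 in each 1-month library. Ebf1, a factor of B cells that stromal cells also express, had 6.53, 5.9 and 7.91 CPM in the 20-month libraries, against 0.490, 0.763 and 1.35 CPM in the 1-month libraries (log2 fold change 2.92 ± 0.25, adjusted p = 2.3e-12). The 7 dendritic cell markers tested, out of 12 listed, gave 3 higher and 2 lower. They summed to 74.3 to 94.7 CPM in the 20-month libraries, against 322 to 443 CPM in the 1-month libraries. The largest part was Bst2, which is also an interferon target.

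The 1-month cultures of this comparison held less of the resorption list in sum than WT cultures stopped after 2 days. The sums were 7182 to 7436 CPM, against 7619 to 8128 CPM in 6-month and 8500 to 8681 CPM in 20-month 2-day cultures. The V-ATPase and fusion lists ran the other way. V-ATPase subunits summed to 6187 to 6528 CPM in the 1-month cultures, against 5035 to 5213 and 5341 to 5362 CPM in the same order. Fusion genes summed to 6894 to 7252 CPM, against 4899 to 5148 and 5047 to 5205 CPM. Of single resorption genes, Ctsk averaged 559 CPM in the 1-month cultures, against 1132 ± 110.5 CPM in 6-month and 1436 ± 26.6 CPM in 20-month 2-day cultures (mean ± SD, n = 3). Acp5 averaged 483 CPM, against 671 ± 46 and 719.7 ± 21.9 CPM, and Itgb3 14.7 CPM, against 38.3 ± 4.32 and 47 ± 1.996 CPM in the same order. Calcr was at 0.415 CPM, against 1.5 ± 0.299 and 3.77 ± 0.186 CPM. Donor age, the stage a culture had reached and the day on which it was made cannot be told apart within the 2 groups.

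Set D1, the other 1-month WT multinucleated cultures, shares no library with the 1-month group but is set against the same 20-month libraries. Against set D1, 8091 genes (52.8%) passed the test, and 4417 (28.9%) were higher and 3674 (24.0%) lower in the 20-month libraries, 831 (5.43%) and 1045 (6.83%) of them at least 2-fold. Of the called genes 54.6% were higher, and 68.4% with library totals in place of TMM. The 2 sets of 1-month cultures differed from each other in 11399 genes (74.5%), and their donor sex and any difference in preparation cannot be told apart. Ctsk averaged 6928 CPM in the 20-month libraries, against 11514 ± 101 CPM in set D1 (log2 fold change -0.73 ± 0.08, adjusted p = 7.1e-10) and 559 CPM in the untagged 1-month libraries. Acp5 (-1.1 ± 0.08), Mmp9 (-1.06 ± 0.06), Calcr (-0.62 ± 0.08), Itgb3 (-1.02 ± 0.06) and Oscar (-1.18 ± 0.09) likewise had negative log2 fold changes against set D1. Of the 24 resorption genes 3 were higher and 16 lower against set D1 (median -0.44), and the stromal list gave 2 higher and 14 lower (median -0.56). Nfatc1 (1.21 ± 0.07) and Tnfrsf11a (0.60 ± 0.06) were higher against both 1-month sets.

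For most lists with at least 12 tested members the sign of the median depended on which 1-month set was used. The resorption, stromal and coupling lists given above were among them. Against set D1, interferon-stimulated genes had 42 members higher and 1 lower (median 0.87), cell cycle genes 44 and 3 (median 1.62), DNA repair genes 28 and 1 (median 0.77) and ribosomal protein genes 76 and 0 (median 0.59). Isg15 averaged 10.5 CPM in the 20-month libraries, 3.98 ± 0.695 CPM in set D1 and 64.1 CPM in the untagged 1-month libraries, so the 20-month level lay between the 1-month sets. Mitochondrial transcripts were lower against set D1 in all 13 cases (median -1.08). V-ATPase subunits gave 1 higher and 13 lower (median -0.28), fusion genes 2 and 9 (median -0.14) and iron genes 1 and 10 (median -0.66). Osteoclast transcription factors gave 12 higher and 2 lower (median 0.21), telomere genes 14 and 0 (median 0.30), heat shock and immediate early genes 14 and 5 (median 0.29) and stress response genes of unfolded proteins 13 and 3 (median 0.12). The medians of the senescence, glycolysis and hypoxia, and cholesterol lists changed sign as well, to 0.10, -0.08 and -0.11 against set D1. Other lists had the same sign against both: macrophage markers (2 higher and 19 lower against set D1), inflammatory cytokines (2 and 28), NRF2 genes (4 and 22), lysosomal genes (1 and 24) and osteoclast repressors (4 and 12). Of the 15 genes with the lowest ratios against the untagged set, 14 were lower and none was higher against set D1. Marco averaged 22.9 CPM in the 20-month libraries, 2359 ± 138 CPM in set D1 and 776 CPM in the untagged set, and Cdkn2a 8.04, 31.5 ± 3.58 and 30.6 CPM. Of the 15 with the highest ratios, 3 were higher and 10 lower against set D1.

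**Figure D4:**
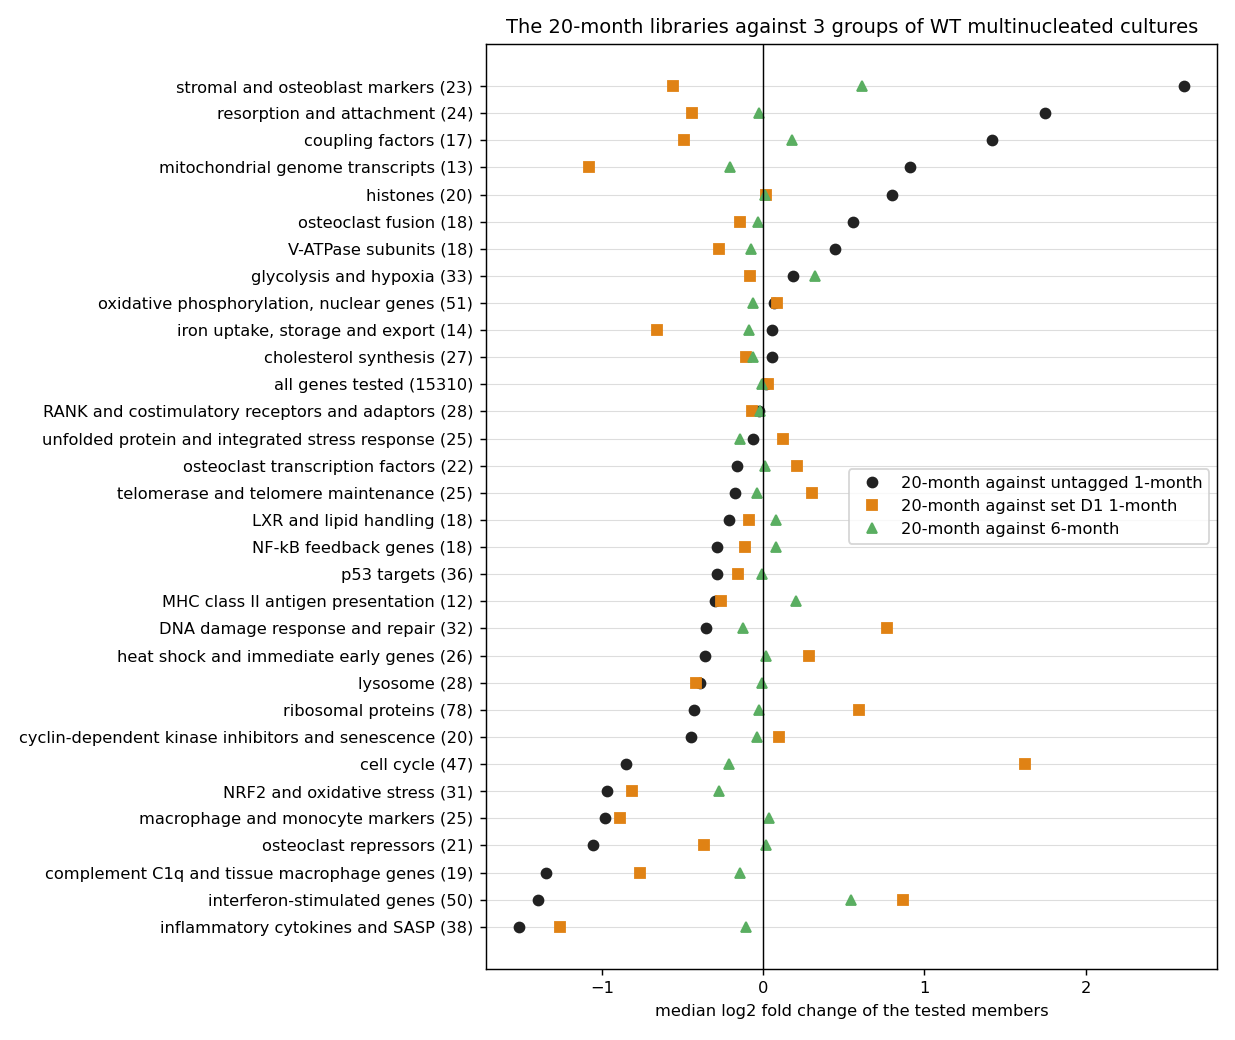
Median log2 fold change of the 20-month libraries against the untagged 1-month (black circles), set D1 1-month (orange squares) and 6-month (green triangles) WT multinucleated libraries for each gene list, with the number of tested members. The 3 comparisons share the 20-month libraries; stromal, resorption, coupling, fusion, V-ATPase, mitochondrial, interferon, cell cycle, DNA repair, ribosomal, telomere, heat shock and transcription factor lists are among those that change sides between the 1-month sets, and inflammatory, macrophage and NRF2 lists stay left of 0 in both.

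The 6-month cultures lay close to the 20-month ones. Between them 2188 genes (14.3%) passed the test, and 1132 (7.39%) were higher and 1056 (6.90%) lower in the 20-month libraries, and 191 (1.25%) and 37 (0.242%) differed at least 2-fold in these directions. Of the called genes 51.7% were higher, and 63.4% with library totals in place of TMM. The number lower was 655 without 20-month replicate 1, 559 without 20-month replicate 4, 625 without 6-month replicate 3 and 672 without 6-month replicate 4. Since both ages can be set against the same 1-month libraries, this is also the test of whether their departures from 1 month differed. For Ctsk (0.10 ± 0.08, adjusted p = 0.46), Acp5 (0.06 ± 0.08, adjusted p = 0.67) and Calcr (-0.02 ± 0.08, adjusted p = 0.93) the log2 fold change over 6 months did not pass. The interferon-stimulated genes were an exception, with 38 of 50 higher in the 20-month than in the 6-month libraries and none lower (median 0.55). Isg15 averaged 10.5 CPM in the 20-month libraries, against 6.61 ± 1.06 CPM in the 6-month libraries (log2 fold change 0.66 ± 0.21, adjusted p = 0.034). Stromal genes had 14 higher and 1 lower of 23 (median 0.61) and hypoxia and glycolysis genes 23 higher and 1 lower of 33 (median 0.32), whereas 17 of 31 NRF2 genes and 24 of 47 cell cycle genes were lower.

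The difference between the 20-month and 1-month libraries ran with gene length. Over 8 bins of 12915 genes, the median log2 fold change went up along the bins, with -0.33 in the shortest (median exonic length 1160 bases) and 0.37 in the longest (10914 bases), and Spearman's rho across genes was 0.29, a description since genes of a library share its preparation. Against set D1 the bin medians lay between 0.03 and 0.11 (rho -0.03). Replicate 1 of the 1-month group showed the trend within its group: its difference from replicates 3 and 4 was 0.20 in the shortest bin and -0.18 in the longest. Without that library 4844 genes were higher and 5031 lower, among them 22 of 24 resorption genes and 20 of 23 stromal genes higher, and 47 of 50 interferon-stimulated, 44 of 47 cell cycle, 29 of 38 inflammatory and 28 of 31 NRF2 genes lower. With length centred 4997 (32.6%) were higher and 5409 (35.3%) lower. The resorption list then gave 23 of 24 higher, the stromal list 21 of 23, and interferon-stimulated genes 47 of 50 lower.

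**Figure D5:**
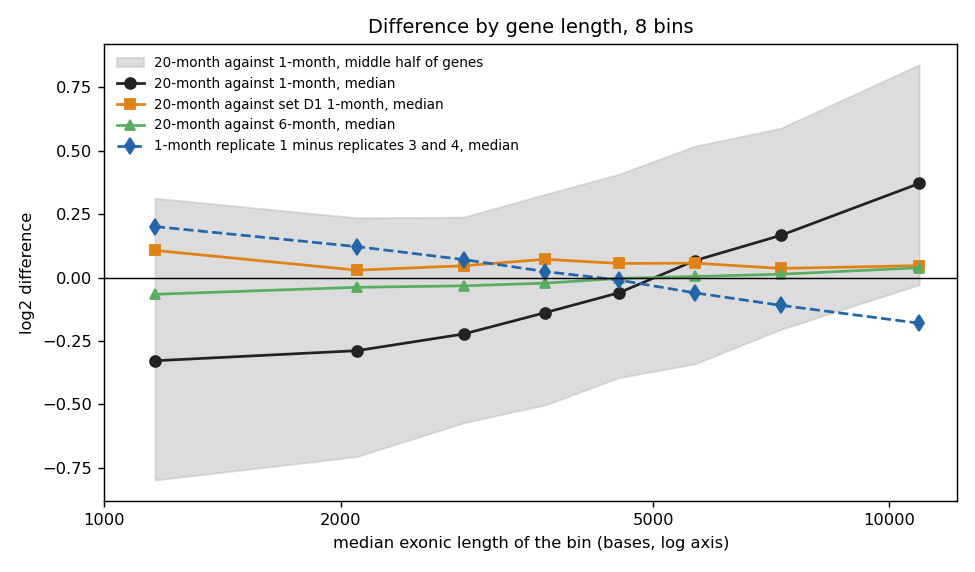
Median log2 difference in 8 bins of exonic gene length (log axis, bases) for the 20-month libraries against 3 groups of WT multinucleated libraries, and for 1-month replicate 1 against replicates 3 and 4 (dashed). The grey band runs between the quartiles of each bin. The line against the 1-month group runs from -0.33 to 0.37, those against set D1 and the 6-month group stay near 0, and the dashed line runs from 0.20 to -0.18.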

How the data were processed

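The deposited values are whole-number counts of fragments per gene and library, made by the authors and not normalized. Per the file headers, they come from featureCounts 1.6.0 over the exons of the Ensembl 88 annotation of GRCm38, on read pairs aligned with STAR. The submitters' processing notes name HTSeq and mm10 instead, and the headers were followed. The command in the headers counts fragments (read pairs) and sets no option for strand or multimapping, so overlapping antisense genes and near-identical copies are uncertain. Per the labels' protocols, polyadenylated RNA was sequenced on an Illumina instrument. The files gave 50686 genes, of which 99.4% matched a symbol.

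All 30 libraries entered 1 quasi-likelihood fit of edgeR 4.0.16 (R 4.3.3), with TMM scaling and a coefficient for each group. filterByExpr kept 15310 genes and removed 35376, and adjusted p are Benjamini-Hochberg values over the kept genes. The common biological coefficient of variation was 0.0610. CPM divides by the TMM-scaled total. A count of 0 allows up to 3 counts, which covers counting error only, since there are no molecular identifiers. Steps were tested on simulated counts.

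The groups, lists and members were chosen with earlier results of these data known. Named genes are the 15 with the largest ratio in each direction (at least 5 CPM in a group, no overlap of libraries, no predicted genes), the 3 called members of each list with the largest change per direction, and a fixed set of osteoclast, senescence and telomerase genes. Other list members were named after their values were seen, to describe their list. No list was tested as a set, and some list members are not reported here by name. Alternatives were size factors and the test of DESeq2 1.42.0, library totals, no filter, the compared groups alone, each library left out, a replicate block and, added after seeing the data, centring along gene length in 50 bins.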

Additional observations from a re-analysis of the deposited data

How the results depend on the processing

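Between the 20-month and 1-month libraries, counts of genes stayed within 1.5 times under every alternative run: leaving out 1 library gave 4844 to 4992 higher and 4938 to 5193 lower, and 2142 to 2318 and 1073 to 1248 at 2-fold. Against set D1 leaving out a library gave 3971 to 4144 higher and 3280 to 3366 lower, and against 6 months 774 to 1046 higher and 559 to 939 lower, against 1056 lower with all libraries and 1687 with only the compared groups. With library totals, the share of called genes that were higher was 59.1% against the untagged 1-month libraries, 68.4% against set D1 and 63.4% against 6 months. A block for replicate number was fitted over all 30 libraries with 4 numbers, of which the 20-month and 1-month libraries share 2. It gave 5123 higher and 5190 lower (2305 and 1163 at 2-fold), 4329 and 3589 against set D1, and 1077 and 991 against 6 months. Libraries of the same number did not deviate together (correlations -0.003 and 0.002, against -0.0196 to 0.0199 for different numbers). With only 2 such pairs, this cannot decide whether the numbers pair the samples. Of 213 named genes, the direction turned for 5 with gene length centred, Atp6v0d1 (0.0265), Kdm5d (-0.3245), Slc40a1 (-0.018), Prkdc (-0.0169) and Atrx (-0.0168). The cause of the moved values was not tested. At these depths genes under about 1 CPM, Terc and Tert among them, are limited by their counts.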
